A study of Homo sapiens with 5 samples.

Results

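SCNN1A, SGK1, NEDD4L, ATP1B1, ATP1B2 and ATP1B3 encode parts of the machinery with which an epithelium takes up sodium. They were followed across 5 microarrays of differentiating human embryonic stem cells. The 6 genes were chosen by name and selected on their measured signals over these same weeks, so their values are given as a description and no test is made of them. They account for 11 of the 47317 probes on the array and for 6 of the 20045 genes that the platform annotation names. Of the 11 probes, 10 were above background (a detection p-value under 0.01) on at least 1 array. The exception was 1 of 4 probes for SGK1, designed to a single expressed sequence tag, which was below background on all 5.

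The study grew the established embryonic stem cell line H9 in the defined medium E6, which was changed each day, and took total RNA every 2 weeks on the way to cells resembling the corneal epithelium. The groups are week 0, the undifferentiated H9 cells, and weeks 2, 4, 6 and 8 of differentiation, all of this 1 line. The labels that set the groups give the time, and whether the week 0 cells were also in E6 was not checked. Each week was measured on 1 Illumina bead array with no replicate. A difference is therefore one between 2 arrays, the spread between cultures is unknown, and no p-value can be given.

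In a sodium-absorbing epithelium, sodium enters through the epithelial sodium channel in the apical membrane and is pumped out at the other side by the sodium pump, Na,K-ATPase. The channel is built from alpha, beta and gamma subunits, of which SCNN1A encodes the alpha subunit. The ubiquitin ligase NEDD4L removes the channel from the membrane, and the kinase SGK1, whose gene is induced by corticosteroids in many cells, phosphorylates NEDD4L and so keeps the channel in place. The pump needs a catalytic alpha subunit and a glycosylated beta subunit, and ATP1B1, ATP1B2 and ATP1B3 encode alternative beta subunits.

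The genes differed in their course. SCNN1A and SGK1 were high in undifferentiated cells, low in the middle of the course and higher again at the end. ATP1B1 and ATP1B2 were higher late in the course, NEDD4L was highest at week 4, and ATP1B3 stayed within 2-fold of week 0 on its brightest probe. Levels are given as normalized log2 signals, in which 1 unit is a 2-fold difference. A gene was called where 2 arrays differed by at least 2-fold and the brighter one was above background. A probe's level cannot be set against that of another probe, since each has its own brightness.

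**Figure D1:**
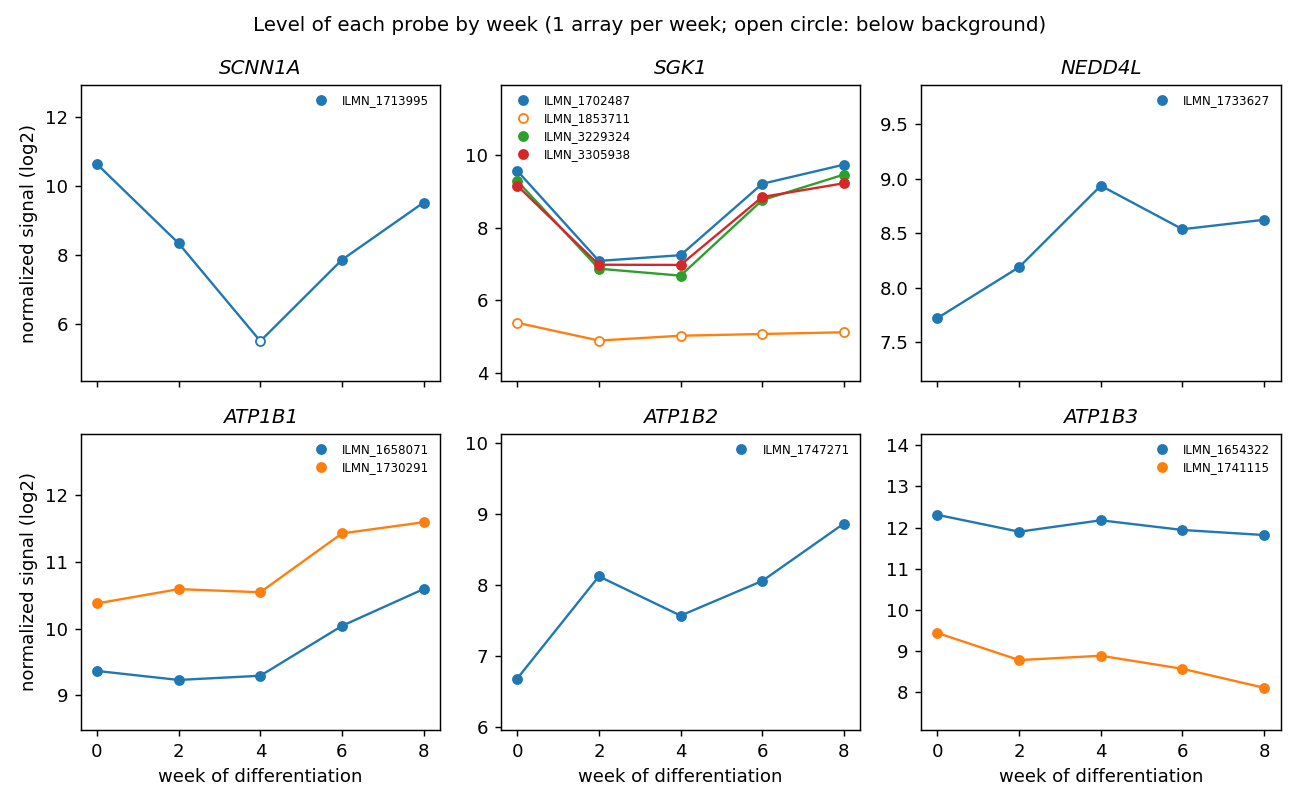
Normalized log2 signal (y axis) of each of the 11 probes against week of differentiation (x axis), 1 array per week, with 1 panel per gene and its own y scale; filled circles are above background and open circles below it. SCNN1A is lowest at week 4, at 5.50, and 3 SGK1 probes are low at weeks 2 and 4, while the SGK1 probe designed to an expressed sequence tag has open circles throughout.

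SCNN1A, the alpha subunit of the channel, had 1 probe. Its signal before normalization was 2004.9 in undifferentiated cells and 408.8, 149.6, 324.5 and 946.6 after 2, 4, 6 and 8 weeks. After normalization the levels were 10.64, 8.34, 5.50, 7.87 and 9.53 on the log2 scale. The week 0 array was the highest and the week 4 array the lowest. At week 4 the detection p-value was 0.0104, just outside the limit for a signal above background, so differences from that array are bounds.

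Against week 0, SCNN1A was 4.92-fold lower at week 2, at least 33.0-fold lower at week 4, 6.85-fold lower at week 6 and 2.17-fold lower at week 8. Between neighbouring weeks it was at least 6.71-fold lower at week 4 than at week 2, at least 4.82-fold higher at week 6 than at week 4, and 3.16-fold higher at week 8 than at week 6. So the return began by week 6 and had not reached the level of undifferentiated cells by week 8. The depth of the low point depended on background correction. The log2 difference of week 4 from week 0 was -5.05 as reported, -3.44 with no background correction and -3.31 in the authors' processed values. In those processed values week 6 was 0.969 above week 4 on the log2 scale, short of a call.

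The partner subunits of the channel could not be followed. SCNN1B, the beta subunit, and SCNN1G, the gamma subunit, were below background on all 5 arrays. That sets a limit on their signal and does not show that they were not transcribed. It also depended on the detection limit. At a limit of 0.05 a partner subunit counted as measured at week 2 or week 0. The median log2 difference of the subunits at week 2 was then -1.16 instead of -2.30. SCNN1D, the delta subunit, was not analysed here.

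SGK1, the serum and glucocorticoid regulated kinase, had 3 informative probes, all designed to its transcript. The brightest probe read 963.0 before normalization in undifferentiated cells, then 229.6, 250.3, 634.8 and 1070.3 after 2, 4, 6 and 8 weeks. Its normalized log2 levels at weeks 0, 2, 4, 6 and 8 were 9.57, 7.08, 7.24, 9.21 and 9.73. The weeks fell apart into low arrays (weeks 2 and 4) and high arrays (weeks 0, 6 and 8). The probe ILMN_3229324 read 9.28, 6.87, 6.68, 8.76 and 9.46 over the same weeks, and the probe ILMN_3305938 read 9.16, 6.98, 6.97, 8.84 and 9.22. All 3 probes thus had the same low and high arrays.

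On its brightest probe SGK1 was 5.59-fold lower at week 2 and 5.01-fold lower at week 4 than at week 0. The log2 difference from week 0 on the other 2 informative probes was -2.42 and -2.18 at week 2, and -2.61 and -2.19 at week 4. At week 6 the brightest probe was 3.91-fold higher than at week 4, with log2 differences of 2.08 and 1.87 on the others. SGK1 was not called against week 0 at week 6 or week 8, where the log2 differences were -0.36 and 0.17. The value at week 8 was -0.13 when arrays were matched at their 75th percentile only, without quantile normalization.

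SCNN1A and SGK1 differed in how far they came back. SCNN1A reached its lowest level at week 4, which was 5.05 below week 0 and 3.93 below week 8 on the log2 scale, both of them bounds. SGK1 was lowest at week 2 on its brightest probe, 2.48 below week 0 and 2.65 below week 8, but on its other 2 informative probes week 4 was the lower of the 2 weeks, so their order is not settled. These were the only 2 of the 6 genes with a mid-course array at least 2-fold below that of week 0 and also that of week 8, a course found in 2.51% of the 13002 named genes above background on at least 1 array. The pair was chosen with this course in view, so nothing is read from that share. Without background correction 100 genes met this rule and in the authors' processed values 88 did, against 327 as reported.

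**Figure D2:**
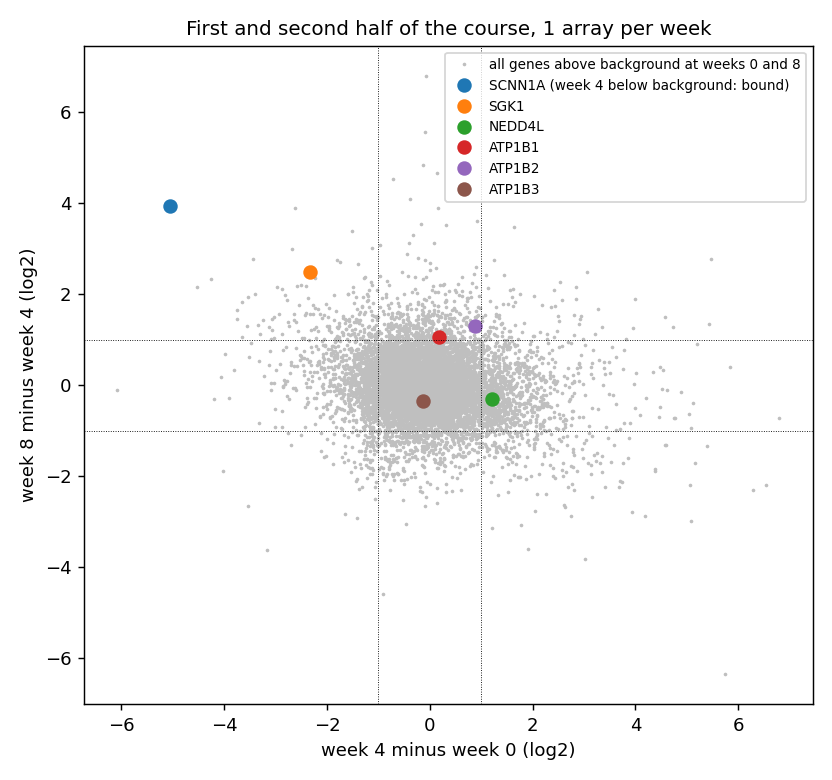
The log2 difference of week 4 from week 0 (x axis) against the log2 difference of week 8 from week 4 (y axis), with 1 grey point for each named gene above background at weeks 0 and 8 and coloured points for the 6 genes; dotted lines mark 2-fold. SCNN1A (a bound, at -5.05 on the x axis) and SGK1 (at -2.33) lie at the upper left, lower at week 4 than at week 0 and higher at week 8 than at week 4.

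The human genome annotation of RefSeq (GRCh38.p14) gives SGK1 3 separate transcript starts, and the annotation used here does not say which of them each probe covers. The 250 bases before each start are shown because they differ widely in base composition. All lie on the minus strand of chromosome 6, at chr6:134318113-134318362, chr6:134177862-134178111 and chr6:134174867-134175116 in the order printed. Capitals mark the TATA box letters TATAAA and the GC box letters GGGCGG on either strand, so that they also appear as TTTATA and CCGCCC.
SGK1 start 1: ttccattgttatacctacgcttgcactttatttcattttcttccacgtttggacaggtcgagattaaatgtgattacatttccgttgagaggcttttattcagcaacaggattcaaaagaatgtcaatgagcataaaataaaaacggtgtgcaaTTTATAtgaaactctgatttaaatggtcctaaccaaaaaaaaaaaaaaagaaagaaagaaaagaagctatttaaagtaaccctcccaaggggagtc
SGK1 start 2: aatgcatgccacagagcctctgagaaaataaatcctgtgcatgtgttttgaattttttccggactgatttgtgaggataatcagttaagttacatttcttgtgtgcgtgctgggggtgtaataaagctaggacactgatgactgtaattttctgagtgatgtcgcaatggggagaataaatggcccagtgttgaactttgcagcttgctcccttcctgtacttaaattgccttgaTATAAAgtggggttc
SGK1 start 3: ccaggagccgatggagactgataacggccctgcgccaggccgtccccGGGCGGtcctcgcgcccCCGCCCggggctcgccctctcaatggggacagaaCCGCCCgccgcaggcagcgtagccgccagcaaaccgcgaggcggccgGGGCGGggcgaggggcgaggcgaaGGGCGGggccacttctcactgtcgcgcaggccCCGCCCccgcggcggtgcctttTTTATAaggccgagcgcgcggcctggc

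The third window is 76.0% G and C and holds 6 GC boxes, whereas the first is 33.6% and the second 41.6% G and C, with no GC box. The median over all 35116 windows of the table was 58.0%. Each SGK1 window holds TATAAA once, as 10.7% of all windows do at least once. The last base of that match lies 91 bases before the start in the first window, 10 in the second and 22 in the third. GGGCGG occurs in 42.6% of all windows. The letters AGAACA, a half-site of steroid receptors, occur in none of the 3 SGK1 windows and in 12.4% of all windows. A match of letters is a description and says nothing about binding.

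NEDD4L, the ligase that removes the channel from the membrane, had 1 probe, above background on every array. Its log2 level was 7.72 at week 0 and 8.19, 8.94, 8.54 and 8.62 at weeks 2, 4, 6 and 8. The lowest array was that of undifferentiated cells, and the highest was week 4, the array on which SCNN1A was lowest. The log2 difference of week 6 from week 4 was -0.40, which was not called. Before normalization the signal was 564.9 at week 4 and 565.7 at week 8, so the place of the highest array is not settled. NEDD4L was 2.32-fold higher at week 4 than at week 0, a call that was lost without background correction, where the log2 difference was 0.905, and in the authors' processed values, where it was 0.871. At weeks 2, 6 and 8 the log2 differences from week 0 were 0.47, 0.82 and 0.90, which were not called.

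ATP1B1, the beta subunit most widely found in epithelia, had 2 probes. The brighter read 10.38 at week 0 and 10.59, 10.55, 11.43 and 11.60 at weeks 2, 4, 6 and 8. The other read 9.36, 9.23, 9.29, 10.04 and 10.59. On both probes weeks 6 and 8 lay above the first 3 arrays.

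The brighter ATP1B1 probe was 2.07-fold higher at week 6 and 2.33-fold higher at week 8 than at week 0. On the other probe the log2 difference was 0.68 at week 6, which was not called, and week 8 was 2.35-fold higher. At weeks 2 and 4 the differences were small and their sign depended on the probe and the scaling: 0.21 and 0.17 on the brighter probe, -0.13 and -0.07 on the other, and -0.05 and -0.23 on the brighter probe with scaling to the 75th percentile. The same scaling brought weeks 6 and 8 down to 0.52 and 0.79, so that neither was called. Without background correction week 6 was at 0.991 and over the mean of both probes at 0.865, which are not calls either. The 75th percentile scaling also moved the median of all genes to -0.11, -0.19, -0.19 and -0.21 at weeks 2, 4, 6 and 8, and the ATP1B1 values at weeks 6 and 8 lay above those medians.

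ATP1B2, a beta subunit known from brain, had 1 probe. It read 6.69 at week 0 and 8.12, 7.57, 8.06 and 8.87 at weeks 2, 4, 6 and 8, so every later array lay above the undifferentiated cells. Against week 0 it was 2.71-fold higher at week 2, 2.59-fold higher at week 6 and 4.53-fold higher at week 8. At week 4 the log2 difference of 0.88 was not called. The calls at weeks 2 and 6 were lost without background correction, at log2 differences of 0.874 and 0.827, and in the authors' processed values, at 0.788 and 0.743.

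ATP1B3, the third beta subunit, had 2 probes that differed in their course. The brighter read 12.31 at week 0 and 11.90, 12.18, 11.94 and 11.82 at weeks 2, 4, 6 and 8. None of its differences from week 0 (-0.41, -0.13, -0.37 and -0.49) was called. The dimmer probe read 9.44, 8.78, 8.89, 8.57 and 8.11, and was 2.51-fold lower at week 8 than at week 0. The fourth beta subunit gene, ATP1B4, was below background on all 5 arrays.

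The last 100 bases before the start of each beta subunit gene are shown for comparison, since the 3 genes had different courses. They come from RefSeq (GRCh38.p14), on the plus strand, at chr1:169106590-169106689 for ATP1B1, chr17:7646527-7646626 for ATP1B2 and chr3:141876543-141876642 for ATP1B3. Capitals mark GGGCGG and CCAAT on either strand, so that they also appear as CCGCCC and ATTGG.
ATP1B1: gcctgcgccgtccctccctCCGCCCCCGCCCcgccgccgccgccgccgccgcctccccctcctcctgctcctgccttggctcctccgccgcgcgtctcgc
ATP1B2: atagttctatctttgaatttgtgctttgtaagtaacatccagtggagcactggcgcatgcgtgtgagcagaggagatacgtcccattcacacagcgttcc
ATP1B3: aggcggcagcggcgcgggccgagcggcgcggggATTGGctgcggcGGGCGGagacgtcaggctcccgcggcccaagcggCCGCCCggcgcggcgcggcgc

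Over the full 250 bases, the windows of ATP1B1 and ATP1B3 were 77.6% and 77.2% G and C, and that of ATP1B2 was 49.2%. ATP1B1 had 2 GC boxes and 1 CCAAT box, ATP1B3 had 4 GC boxes and 1 CCAAT box, and ATP1B2 had neither. CCAAT occurs in 32.0% of all windows. TATAAA and AGAACA occurred in none of the 3 windows, nor did CACCTG, the E-box letters bound by ZEB and SNAI factors, which 17.5% of all windows hold. Both AGAACA and CACCTG do occur before NEDD4L, which has 5 windows, not printed here. The first holds AGAACA once, the second CACCTG 3 times and the third CACCTG 2 times.

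Read against the whole array, called genes were common. At week 2, 10.7% of the genes above background on either array were higher than at week 0 and 9.29% were lower, and among the 6 genes 1 was higher (ATP1B2) and 2 were lower (SCNN1A and SGK1). At week 4, 14.0% of all genes were higher and 11.5% lower, and 1 of the 6 was higher (NEDD4L) and 2 were lower (SCNN1A and SGK1). At week 6, 15.8% were higher and 14.1% lower, with ATP1B1 and ATP1B2 higher and SCNN1A lower. At week 8, 16.8% were higher and 15.4% lower, with the same 3 genes called in the same directions. Between neighbouring weeks, 5.42% of all genes were at least 2-fold lower at week 4 than at week 2, SCNN1A among them. At week 6, 6.23% were at least 2-fold higher than at week 4, SCNN1A and SGK1 among them. At week 8, 1.93% were at least 2-fold higher than at week 6, of the 6 genes SCNN1A alone. Since the 6 genes were chosen on these contrasts, nothing is read from their counts.

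The genes around this pathway were taken from 9 lists of channel subunits, hormone response, kinases, ligases, proteases, pump subunits and other carriers. Apart from the 6 genes, the lists hold 77 genes with a named probe, of which 54 were above background on at least 1 array. Against week 0, 9 were higher and 7 lower of 45 measured at week 2, 8 higher and 9 lower of 46 at week 4, 11 higher and 6 lower of 50 at week 6, and 15 higher and 5 lower of 53 at week 8. At week 8 that is 28.3% higher and 9.43% lower, beside the 16.8% and 15.4% of all genes. With no background correction 3 were lower at week 8, and in the authors' processed values 9 were higher and 2 lower.

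Corticosteroids act through the receptors NR3C1 (glucocorticoid) and NR3C2 (mineralocorticoid), and SGK1 is one of their target genes. NR3C2 was below background at weeks 0 and 2 and read 5.73, 7.25 and 7.74 at weeks 4, 6 and 8, which puts it at least 2.07 above week 0 on the log2 scale at week 8. NR3C1 was above background only at weeks 6 and 8, at 6.06 and 6.33, and was not called. So both receptors were measurable on the 2 late arrays on which SGK1 was also high, but only NR3C2 at week 4 and neither at weeks 0 and 2.

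Other hormone-responsive genes had courses of their own. TSC22D3, a glucocorticoid-induced leucine zipper protein, differed from week 0 by 0.46, 1.42, 1.66 and 2.00 on the log2 scale at weeks 2, 4, 6 and 8, and was thus already called higher at week 4, when SGK1 was low. HSD11B1, which makes active cortisol from cortisone, was called higher at weeks 2, 4 and 6 (1.17, 1.62 and 1.10) and not at week 8 (0.40). ZBTB16, a zinc finger factor and glucocorticoid target, was above background only at weeks 2 and 4, where it was at least 1.74 and at least 2.48 above week 0. FKBP5, PER1, DUSP1, KLF9, ERRFI1 and HSD11B2 were below background on all 5 arrays. Of the 5 genes of this list measured at week 8, SGK1 included, 2 were higher and none was lower, with a median log2 difference of 0.66. Over all genes the shares were 16.8% and 15.4% and the median -0.05.

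Among 12 measured genes of the SGK family with SGK1 itself, its activating kinases and its substrates, 5 were higher and 1 was lower at week 8, when 16.8% of all genes were higher and 15.4% lower. The substrates NDRG1 and NDRG2 were the furthest from week 0. NDRG1 was below background at week 0 and at least 2.36, 2.92, 3.95 and 4.98 above it at weeks 2, 4, 6 and 8, while NDRG2 differed by 0.31, 0.96, 1.89 and 2.91. The kinase GSK3B was 2.10 higher at week 8, the forkhead factor FOXO3 1.76 higher and the kinase AKT1 1.40 higher on the log2 scale. On a second probe for each, FOXO3 was at 0.75 and AKT1 at 0.96, which would not be called. MTOR, the kinase of the complex that activates SGK1, was lower at weeks 2, 4 and 8, with log2 differences of -1.23, -1.97 and -1.17. Of the relatives of SGK1, SGK3 was not called against week 0 and SGK2 was below background on all 5 arrays. The median of the list at week 8 was 0.68, beside -0.05 over all genes.

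NEDD4L has a family of related ligases, with adaptors that bring them to their targets. None of the measured genes of that list was called lower than week 0 at any week. Over all genes 9.29%, 11.5%, 14.1% and 15.4% were lower at weeks 2, 4, 6 and 8. With 10 or 11 genes measured, nothing is read from this absence. At week 8, 3 of 11 (NEDD4L included) were called higher: the ligase ITCH (1.48) and the NEDD4 family adaptors NDFIP1 (1.18) and NDFIP2 (1.40). Over all genes 16.8% were called higher. NEDD4, the closest relative of NEDD4L, differed from week 0 by 0.36 at week 8. The median of the list was 0.68, and that of all genes -0.05.

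Serine proteases that cut and so activate the channel, and their inhibitors, include genes that were also low in mid course and others that were not. PRSS8, or prostasin, a channel-activating protease, read 9.65, 9.39, 8.07, 9.74 and 10.06 at weeks 0, 2, 4, 6 and 8. It was lower at week 4 than at week 0, with a log2 difference of -1.58, and its low array was the one on which SCNN1A was lowest. ST14, or matriptase, was below background at week 2 alone, at least 1.37 below week 0 on the log2 scale. SPINT1, an inhibitor of such proteases, was lower at weeks 2 and 4, with log2 differences of -1.19 and -1.05, but a second probe gave -1.02 and -0.69. SERPINE2, another inhibitor, was instead higher than week 0 at week 2, with a log2 difference of 2.17. FURIN was lower at week 2 (-1.84) and week 6 (-1.96) but was not called at week 4 (-0.40). At week 8 FURIN (-1.93) and TMPRSS2 (at least 1.62 below week 0) were lower and none of the 7 measured genes was higher, and the median of the list was 0.45. The shares of all genes were 15.4% lower and 16.8% higher, and their median was -0.05.

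FXYD proteins are small membrane proteins that adjust the sodium pump. FXYD4 read 9.34, 8.18, 7.11, 7.99 and 8.81 at weeks 0, 2, 4, 6 and 8, and was called lower than week 0 at weeks 2, 4 and 6. FXYD5 was lower at weeks 2 and 4 on its brightest probe, with log2 differences of -1.45 and -1.69, but a second probe gave 1.35 and 1.72, so its direction is not settled. At week 8 none of the 5 measured FXYD genes was called, and their median was -0.21, beside -0.05 over all genes, of which 16.8% were called higher and 15.4% lower. In all, 5 of the 54 listed genes had an array in mid course at least 2-fold below both week 0 and week 8, namely FXYD4, FXYD5, PRSS8, SPINT1 and ST14, beside the 2.51% of all genes that did so. FXYD5 counts here on its brightest probe alone, and the number of all genes under this rule depended on background correction, as given above.

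Among other carriers of sodium, chloride and water, 5 of 16 measured genes were higher and 2 were lower at week 8, with a median of 0.37. Of all genes 16.8% were higher and 15.4% lower, with a median of -0.05. The water channel AQP1 was above background at week 8 alone, at least 1.98 above week 0, and AQP3 was at least 1.28 above it. The chloride channel CFTR (1.12), the sodium-potassium-chloride cotransporter SLC12A2 (1.10) and the sodium-myo-inositol cotransporter SLC5A3 (1.69) were also higher. SLC4A11, a transporter known from the corneal endothelium, was at least 1.29 below week 0. The kinase WNK1 was lower, with a log2 difference of -1.05, but a second probe gave -0.20.

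**Figure D3:**
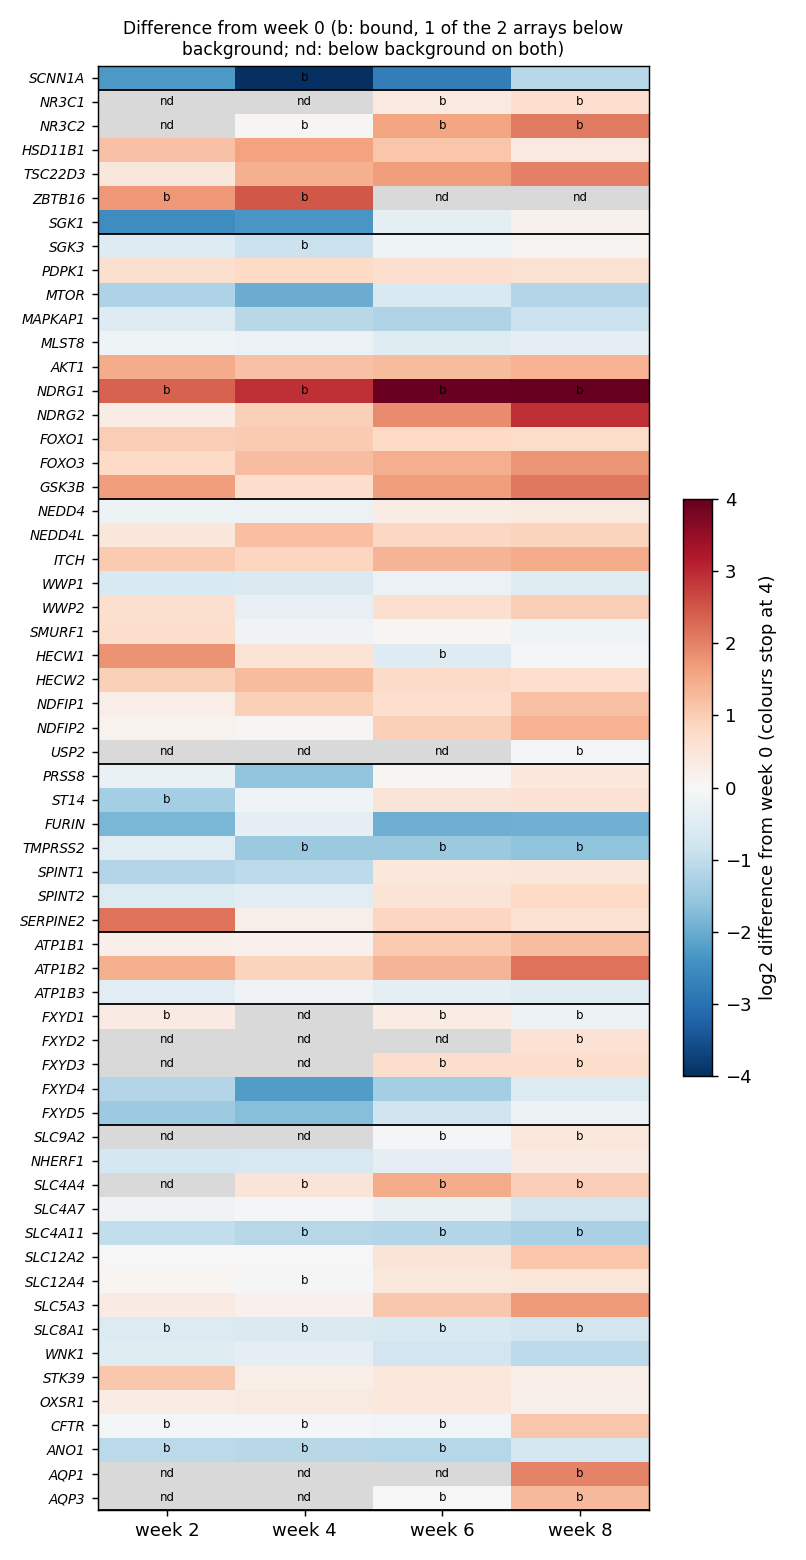
Log2 difference from week 0 (colour, red higher and blue lower, stopping at 4) at weeks 2, 4, 6 and 8 (columns) for the 6 genes and the measured genes of the lists (rows), on the probe of highest mean; b marks a bound and grey nd a pair of arrays both below background. SCNN1A, SGK1, FXYD4 and PRSS8 are blue at week 4, with differences of -5.05, -2.33, -2.23 and -1.58; FXYD5 is blue there too (-1.69), but its second probe gave 1.72.

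The genes most alike to each of the 6 were found by the root mean square of the gap between their log2 differences from week 0 over the 4 later weeks, among genes above background on the same arrays. For SCNN1A 127 genes had that pattern of detection, and the closest were KRTCAP2, CNMD and NTS, at gaps of 1.09, 1.11 and 1.14. Their log2 differences from week 0 at week 8 were -2.60, -2.37 and -2.30, whereas that of SCNN1A was -1.12, so none of the 3 came back as far. For SGK1 9048 genes had its pattern of detection, and the closest were KCNK1, RBM47 and MAL2, at gaps of 0.33, 0.40 and 0.40. The smaller pool of SCNN1A follows from its week 4 signal, just outside the detection limit. The gaps of the 2 genes therefore cannot be compared. KCNK1 differed from week 0 by -2.04, -1.86, -0.40 and 0.14 at weeks 2, 4, 6 and 8. For the other 4 the closest were PCMT1 to NEDD4L (0.049), RNF150 to ATP1B1 (0.075), PMM1 to ATP1B2 (0.153) and PHKA1 to ATP1B3 (0.023). These likenesses describe 5 arrays and carry no test.

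Marker genes of other cell types also differed between the weeks, and their part in the results was not tested. In bulk RNA, fewer cells of a type and less RNA per cell cannot be told apart. The summed level of a list is the log2 of the sum of the normalized signals of its genes above background on at least 1 array. A gene below background on an array enters that sum at the array's lowest value above background. For the pluripotent list it was 14.85, 12.94, 11.60, 9.75 and 9.08 at weeks 0, 2, 4, 6 and 8, with POU5F1 and NANOG below background from week 4 on. It was still lower at weeks 6 and 8 than at week 4. SCNN1A and SGK1 were higher at weeks 6 and 8 than at week 4, and a link to the pluripotent sum was not tested.

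The corneal and surface epithelium list summed to 12.76, 13.17, 13.37, 14.72 and 15.10, and 9 of its 12 genes were above background at weeks 6 and 8. At week 0 only EPCAM and KRT16 were above background, at 12.67 and 5.98, so that first sum is nearly all EPCAM. The genes that define mature corneal epithelium within it, KRT3, KRT12 and ALDH3A1, were below background on all 5 arrays on their brightest probes. These markers could therefore not be followed, which does not show that the week 8 cells lacked them. The measured genes of that list did not share a course. EPCAM, an epithelial adhesion molecule, read 12.67, 11.61, 10.62, 11.72 and 11.49 and was lowest at week 4. CDH1, the epithelial cadherin, was below background at week 0, which limits its signal there and does not show that it was absent. It was highest at week 4, at 10.82, and read 8.75 at week 8. KRT16, PAX6 and TFAP2A were likewise above week 0 at week 4, by 5.46, at least 5.46 and at least 5.08 on the log2 scale.

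The neuronal list summed to 11.21, 14.03, 14.36, 12.69 and 12.98. STMN2, SNAP25, MAPT and TUBB3 were highest at week 4, the array on which SCNN1A was lowest. ELAVL4 was instead highest at weeks 6 and 8, at 9.70 and 9.74, and DCX was lowest at week 4, at 9.29.

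Stromal markers summed to 11.59, 14.92, 14.82, 15.61 and 15.99 over the same weeks, and markers of pigment cells and retinal pigment epithelium to 10.65, 11.58, 12.49, 14.53 and 14.89. Lens markers summed to 8.11, 8.39, 9.25, 11.55 and 12.97. At week 0 only PMEL of the pigment list and BFSP1 of the lens list were above background, at 10.29 and 6.18. The choroid plexus list summed to 10.78, 10.90, 10.71, 13.68 and 15.08, but its late level is nearly all that of TTR, the carrier transthyretin, at 13.51 and 15.00 at weeks 6 and 8. CLIC6 in that list read 10.65 at week 0 and 10.68 at week 8, FOLR1 was not called, KCNJ13 was below background throughout, and AQP1 was above it at week 8 alone. These 4 sums, and also that of the corneal and surface epithelium list, were highest at weeks 6 and 8, as ATP1B1 was. The glial sum stayed between 8.47 and 8.70 but rests almost on SLC1A3 alone, at 8.28 at week 0 and 8.53 at week 8. GFAP was above background at week 6 only, at 5.61, and AQP4, FABP7 and S100B on no array. ATP1B2 was 2.18 higher at week 8 than at week 0, and a part of glia in this was not tested.

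**Figure D4:**
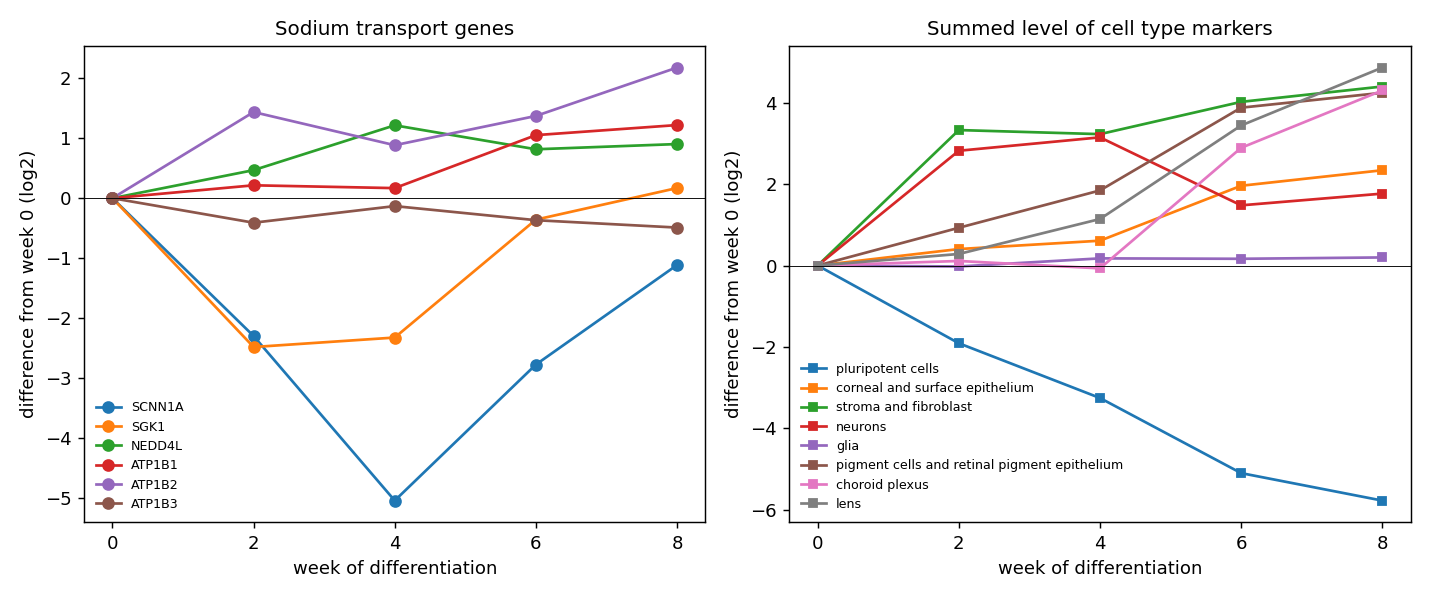
Left, log2 difference from week 0 (y axis) of the 6 genes on their brightest probes by week (x axis); right, log2 difference from week 0 of the summed level of 8 marker lists, 1 array per week. SGK1 is low at weeks 2 and 4, where the neuronal sum is highest. SCNN1A is lowest at week 4, and is lower at week 6 (-2.78) than at week 2 (-2.30). The pluripotent sum is lower at each later week, ending at 9.08 against 14.85 at week 0.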

How the data were processed

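Expression was measured in the cell line H9 on 5 Illumina arrays, 1 for each of weeks 0, 2, 4, 6 and 8, and this number limits the precision. Per the file headers, the first deposited table gives a linear bead intensity for each probe before normalization, from which no background had been taken. Its deposited detection score, a fraction from 0 to 1 that goes up with intensity, was taken as 1 minus a detection p-value. The authors' processed intensity is in another deposited table. Its Spearman correlation with the unnormalized signals was 0.999 across probes and its array medians were 133.1 to 133.2, so scale and direction are known. Its normalization and software are not given in the sources used here.

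With neqc, signals were corrected for background and quantile normalized in limma 3.58.1 (R 4.3.3), with the background inferred through detection p-values and an offset of 16 before log2. The steps were tested on simulated data. A probe was above background at a detection p-value under 0.01. Signals under that limit were raised to the smallest detected value of their array, and differences from them are bounds, written "at least". A call needed a 2-fold difference with the brighter array above background. Lists used 1 probe per gene, the one of highest mean. Later steps used Python 3.11.15, pandas 2.3.3 and numpy 2.4.6. Between 16993 and 18358 probes were above background per array.

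Of 47317 probes, 30110 had 1 gene symbol, 8 had several and 17199 had none listed, and symbols were updated through Entrez identifiers for 30071. Promoter windows came from RefSeq (GRCh38.p14) and covered 5 of the 6 genes. The 6 genes, the lists and the rules were chosen with earlier results of these data known. Named are every probe of the 6 genes, all channel and pump beta subunits, up to 4 called genes of each list with the largest difference at week 8, and the genes most alike. Other listed genes were named after their values were seen. Alternatives were no background correction, scaling to the 75th percentile, an offset of 50, a detection limit of 0.05, the authors' values, averaging of probes and only genes above background on all arrays.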

Additional observations from a re-analysis of the deposited data

How the results depend on the processing

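No called difference of the 6 genes changed direction under the alternatives run. Among differences that were not called, scaling to the 75th percentile turned the sign of SGK1 at week 8 and of ATP1B1 at weeks 2 and 4, as given above. Of 247 values recomputed, 236 stayed on their side of the 2-fold limit and 11 fell inside it, and 38 of 44 comparisons kept their call throughout. The 11 losses, as log2 differences from week 0 unless said, were as follows, and the cause was not tested. Without background correction ATP1B2 was at 0.874 and 0.827 at weeks 2 and 6, NEDD4L at 0.905 at week 4 and ATP1B1 at 0.991 at week 6. In the authors' values ATP1B2 was at 0.788 and 0.743 at weeks 2 and 6, NEDD4L at 0.871 at week 4, and SCNN1A at 0.969 for week 6 over week 4. With scaling to the 75th percentile ATP1B1 was at 0.52 and 0.788 at weeks 6 and 8, and with the mean of its probes at 0.865 at week 6.

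Counts of the other listed genes called against week 0 moved more. Without background correction 4 were higher and 3 lower at week 2, 5 and 4 at week 4, 7 and 2 at week 6, and 3 were lower at week 8. In the authors' values 2 were lower at week 2, and the counts higher and lower were 5 and 4 at week 4, 7 and 1 at week 6, and 9 and 2 at week 8. With an offset of 50, 4 were lower at week 2 and 5 at week 4. Scaling to the 75th percentile left 5 higher at week 4. The mean of probes left 4 higher at week 4 and 6 at week 6. Among genes above background on all 5 arrays, 3 were lower at week 6 and 3 at week 8. Over all genes, 2068 were higher and 1900 lower at week 8, against 1251 and 992 without background correction and 1243 and 944 in the authors' values. No paired analysis was possible because each week has 1 array. With 1 array per week, the spread between cultures is not known, and a probe near background has only a bound.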
